A study of Mus musculus with 22 samples.

Results

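The genes described here were 10 mouse genes of epidermal growth factor (EGF) and fibroblast growth factor (FGF) receptor signalling, chosen by gene symbol in the Ribo-Seq tables and joined to the RNA-Seq files by Ensembl ID. They were the receptors Egfr, Fgfr1, Fgfr2 and Fgfr3, the Sprouty genes Spry1, Spry2 and Spry4, the phosphatase gene Dusp6, and the transcription factor genes Etv4 and Etv5, 10 of 23081 genes in the Ribo-Seq tables. Fgfr1 carried 2 Ensembl IDs, so that the genes had 11 IDs. Of these, 9 had a row among the 22623 genes of the RNA-Seq files. Spry1 was measured by footprints only and has no mRNA value and no translational efficiency. On build NCBIM37 the annotation placed Egfr (ENSMUSG00000020122) at chr11:16652206-16818161, Fgfr2 (ENSMUSG00000030849) at chr7:137305965-140315033, Fgfr3 (ENSMUSG00000054252) at chr5:34064373-34079716, Spry1 (ENSMUSG00000037211) at chr3:37538869-37543520. It placed Spry2 (ENSMUSG00000022114) at chr14:106291166-106296036, Dusp6 (ENSMUSG00000019960) at chr10:98725865-98730122, Etv4 (ENSMUSG00000017724) at chr11:101631056-101646685, Etv5 (ENSMUSG00000013089) at chr16:22381382-22439792.

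The study cultured cortical neural stem cells (NSCs) from mouse embryos of the 129SvJae strain to measure RNA and translation after gain or loss of the Musashi RNA-binding proteins, with 14 poly(A)-selected RNA-Seq libraries of 13 conditions and 8 Ribo-Seq libraries. KH2 cells carried the m2rTTA transactivator in the Rosa26 locus and no Musashi transgene, and tetO-Msi1 and tetO-Msi2 cells carried it together with a doxycycline (Dox)-inducible Msi1 or Msi2 cDNA in the Col1a1 locus. Cells of these lines were untreated or given Dox at 1 µg/ml for 72 h, as E12.5 cells, and KH2 (untreated only) and tetO-Msi1 also as E13.5 cells. C1 and C4 cells, both E12.5, carried floxed Msi1 and Msi2 alleles, were untreated or given 4-hydroxytamoxifen (4-OHT), with a time point of 48 h, and differed in that C4 carried a Tamoxifen-inducible Cre and C1 did not. All cells grew in medium with EGF and basic FGF, and the Ribo-Seq libraries were of E12.5 cells of all lines but tetO-Msi2. Every condition was 1 library apart from untreated tetO-Msi1 cells at E13.5, sequenced as a technical pair and counted once. The tests therefore took lines or stages as the repeats, with 1 to 3 residual degrees of freedom. Their p-values draw on a spread shared across genes as well as on each gene's own spread between lines or stages. For Msi1 induction over both stages, where the prior degrees of freedom were infinite, the shared spread alone was used. Where line or stage was a block, its mean differences were taken out. The sources used here do not say how many embryos a line came from.

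EGF and FGF receptors are receptor tyrosine kinases that activate the Ras, Raf, MEK and ERK kinase cascade, and their ligands keep cultured cortical progenitors dividing. ERK activity induces genes that hold the pathway back, among them the Sprouty proteins, which act between receptor and Ras or Raf, and DUSP6, a cytoplasmic phosphatase that removes phosphate from ERK. The ETS factors ETV4 and ETV5 are also transcribed in response to FGF signals, and together these genes are often read as a record of pathway output.

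Promoter sequences were taken from RefSeq (build GRCm38.p6, which is not the build of the count files), from 250 bases before to 50 bases after the start of each transcript, and 7 of the 10 genes had an entry, with 9 windows in all. They are shown for Egfr, Spry2 and Dusp6, since the mRNA of Egfr differed between the lines in the opposite direction to that of Spry2 and Dusp6. Each window was searched on both strands for the ETS core CCGGAA, the AP-1 site TGANTCA and the CRE TGACGTCA, which were present in 14.9%, 7.81% and 1.79% of 32851 promoters of this length. The ETS core lay 119 bases before the start of Egfr and 33 bases after that of Spry2 (capitals, TTCCGG being the same core on the other strand), and in none of the other 7 windows of these genes. No window of these genes held the AP-1 or CRE letters.
Egfr promoter (chr11:16751953-16752252, plus strand): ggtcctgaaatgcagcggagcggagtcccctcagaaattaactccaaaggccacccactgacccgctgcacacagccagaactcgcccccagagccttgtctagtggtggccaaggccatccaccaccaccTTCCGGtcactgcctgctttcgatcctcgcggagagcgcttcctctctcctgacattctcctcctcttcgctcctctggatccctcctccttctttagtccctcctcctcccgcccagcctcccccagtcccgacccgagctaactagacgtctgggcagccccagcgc
Spry2 promoter (chr14:105896770-105897069, minus strand): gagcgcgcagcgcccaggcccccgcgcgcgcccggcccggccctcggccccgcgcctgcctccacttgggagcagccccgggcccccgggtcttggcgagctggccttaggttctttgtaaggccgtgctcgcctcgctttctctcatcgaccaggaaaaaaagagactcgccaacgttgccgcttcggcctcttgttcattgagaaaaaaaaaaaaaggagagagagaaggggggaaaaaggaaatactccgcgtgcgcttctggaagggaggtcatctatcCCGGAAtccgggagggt
Dusp6 promoter (chr10:99262981-99263280, plus strand): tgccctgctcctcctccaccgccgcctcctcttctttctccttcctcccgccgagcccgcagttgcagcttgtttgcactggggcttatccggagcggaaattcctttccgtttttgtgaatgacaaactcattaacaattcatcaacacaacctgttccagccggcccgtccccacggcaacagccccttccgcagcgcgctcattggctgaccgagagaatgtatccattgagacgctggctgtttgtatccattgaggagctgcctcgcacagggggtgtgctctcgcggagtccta

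The Musashi proteins bind short RNA motifs around UAG, mostly in 3′ UTRs, and the motif searched here was (G/A)UAGU, written as DNA GTAGT and ATAGT. When 1 annotated 3′ UTR per gene, the longest, was searched (GENCODE M1 on NCBIM37, the mouse build also called mm9), 8 of the 10 genes held at least 1 such motif on the transcribed strand, against 59.4% of 19381 genes with a 3′ UTR of at least 50 nt. Egfr had 9 in 6303 nt, Spry4 had 7 in 3538 nt, Etv5 had 4 in 2161 nt, Fgfr2 had 4 in 2820 nt, Dusp6 had 2 in 1189 nt and Fgfr1 had 2 in 1793 nt. Spry1 and Fgfr3 had 1 each, and Spry2 and Etv4 had none. The Fgfr2 3′ UTR searched (transcript ENSMUST00000153166.1) spans introns. Its motifs nearest to the stop codon lay 390 and 594 nt after it, but at chr7:137326217-137326245 and chr7:137321349-137321377. Whether these are coding sequence in other Fgfr2 transcripts was not checked, so the Fgfr2 count may not hold for the full-length receptor mRNA. The density reached 1.98 per kb in Spry4 and 1.85 per kb in Etv5, with a median of 0.82 per kb over all genes. The motif nearest to the stop codon is shown (capitals) for 5 of these genes as examples, namely 1 receptor of each family, 1 Sprouty gene, Dusp6 and Etv5, a match of letters and not a measured binding site.
Egfr site 1 (chr11:16812231-16812259, plus strand): tgatgcactcttGTAGTctggtacacaga
Dusp6 site 1 (chr10:98729331-98729359, plus strand): tcaactttgggtATAGTggagccaaagag
Etv5 site 1 (chr16:22383026-22383054, minus strand): aatctttcccctGTAGTccagaactgggg
Fgfr3 site 1 (chr5:34079355-34079383, plus strand): gttcagatgttaATAGTtatctgttacaa
Spry1 site 1 (chr3:37543092-37543120, plus strand): cacttggtaactGTAGTtgaaattcctgt

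RNA-Seq libraries held 7889966 to 60791605 counted reads and Ribo-Seq libraries 657288 to 6381242. The reads in these tables were 14.9% to 15.8% of the number that the authors divided by for RPKM in the 6 RNA-Seq libraries of E12.5 KH2 and tetO cells, and 28.2% to 34.1% in the others, so levels across experiments are given as a normalised level, which is the reads per kb of counted exon divided by the library's total count after scaling by TMM (trimmed mean of M values), in RPKM-like units. A single gene took 66.68% of the reads of the untreated KH2 Ribo-Seq library and 1.00% to 17.88% of the others. Msi1 mRNA rose with Dox in tetO-Msi1 cells from a normalised level of 129 to 701 at E12.5 and from 182 to 699 at E13.5, and Msi2 in tetO-Msi2 cells from 153 to 824. In the library labelled C4 with 4-OHT, Msi2 footprints were at 8.09 against 158 without 4-OHT, while Msi1 mRNA was at 28.1 against 29.5 and Msi1 footprints at 11.6 against 27.1. Which exons of Msi1 are deleted is not given in the sources used here, so the Msi1 reads may lie outside them and the Msi1 mRNA does not check this label. Of the neural stem markers 9 of 10 were measured and summed to 13500 to 18300, with neuronal markers at 33.4 to 74.4 and mesenchymal markers at 0.951 to 5.59. The astrocyte list summed to 416 to 1220, the oligodendrocyte lineage list to 1620 to 3250, and the blood or microglia list to 2.27 to 14.9. The blood or microglia sum was almost all Cd68, at 2.27 to 14.7. Aif1 reached 0.353 and Csf1r 0.21 at most, and Cx3cr1 was at 0 in all 13 conditions. In bulk RNA, fewer cells of a type and less RNA per cell cannot be told apart.

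Dusp6 and Spry4, which encode feedback inhibitors of ERK and of the receptors' signal, varied most among the 9 genes with mRNA values, with the same order of the 3 sets of libraries. Dusp6 mRNA stood at 18.4 and 20.9 in KH2 cells (untreated and Dox), 14.1 and 13.6 in tetO-Msi1 cells and 24.8 and 24.3 in tetO-Msi2 cells at E12.5. In E13.5 cells it was 92.1 in KH2, 71.5 in untreated tetO-Msi1 and 93.1 in tetO-Msi1 with Dox. In the floxed lines it was 240 and 324 in C1 (untreated and 4-OHT) and 175 and 252 in C4. All 4 libraries of the floxed lines lay above all 3 of E13.5, and these above all 6 of the E12.5 KH2 and tetO lines, a range of 23.8-fold. How many of all genes separate in this way was not counted. In the tests of untreated cells below, 66.3% of genes differed between line types and 50.8% between stages. Spry4 followed with 15.0 to 18.1 in the 6 libraries of the E12.5 KH2 and tetO lines, 44.7 to 60.1 in the 3 of E13.5 and 97.2 to 138 in the 4 of the floxed lines, again without overlap.

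Spry2, the more abundant per length of the Sprouty mRNAs measured, covered a narrower range in the same order, with 189 to 233 at E12.5 in the KH2 and tetO lines, 312 to 349 at E13.5 and 540 to 638 in C1 and C4. Over the 13 conditions the log2 levels of Dusp6, Spry2 and Spry4 had a Pearson r of 0.98 in each pair, as a description of libraries that share lines and experiments. Fgfr1 was at r = 0.94 with Dusp6. Etv4, in contrast, had r = 0.02 with Dusp6 and covered the narrowest range of the 9 genes, 84.9 to 158.

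Egfr, the EGF receptor itself, had another order. Its mRNA was at 256 and 245 in KH2 (untreated and Dox), 264 and 203 in tetO-Msi1 and 278 and 241 in tetO-Msi2 at E12.5. It reached 485 in KH2 and 465 and 428 in tetO-Msi1 (untreated and Dox) at E13.5. In the floxed lines it was 107 and 132 in C1 and 80.8 and 140 in C4. The floxed lines were thus lowest for Egfr and highest for Dusp6, Spry2 and Spry4, while the E13.5 cells were highest for Egfr. The FGF receptors split as well. Fgfr1 ranged over 119 to 179 in the E12.5 KH2 and tetO lines and over 216 to 288 in all 7 others. Fgfr3 was at 227 to 263 in the former and 367 to 484 in the floxed lines. At E13.5 Fgfr3 ranged from 152 in untreated tetO-Msi1 cells to 278 in KH2 cells, which overlaps the E12.5 range. Fgfr2 was lowest of the receptors per length throughout, at 24.4 to 50.3. Across the 13 conditions Egfr and Fgfr3 ran in opposite directions (r = -0.83). In the technical pair the share of reads of these 9 genes differed by 0.383% (Dusp6) to 8.15% (Fgfr2). This is less than these ranges but leaves out variation between cultures, which no condition measured.

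**Figure D1:**
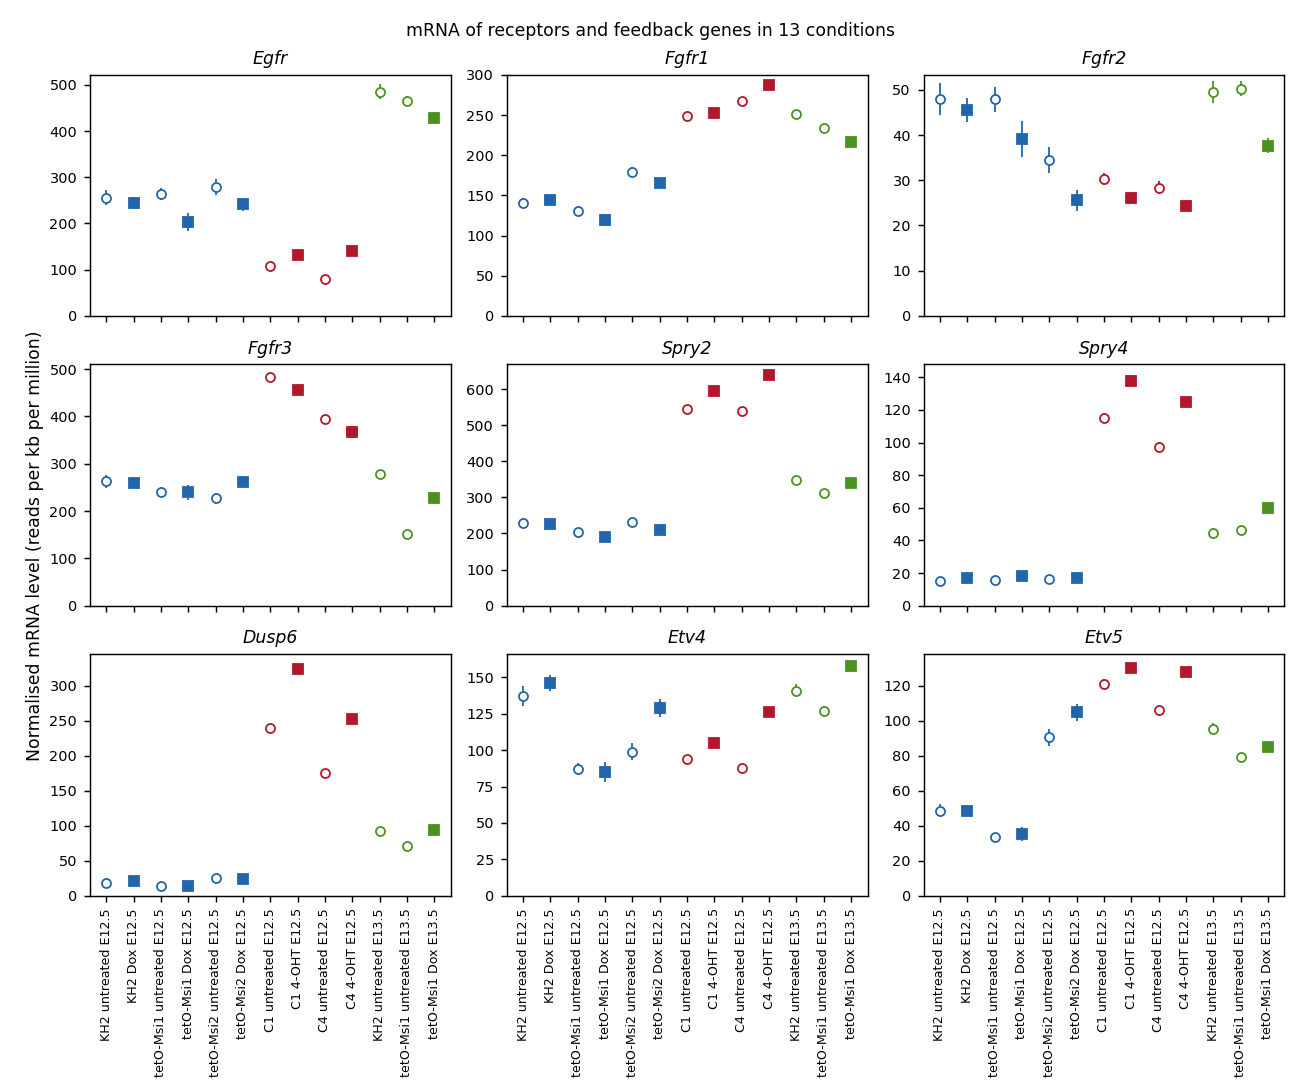
Normalised mRNA level (RPKM-like units after TMM scaling, linear axis from 0) of 9 genes in 13 conditions, 1 panel a gene, with open circles for untreated and filled squares for treated libraries. Blue marks E12.5 KH2 and tetO lines, red the floxed lines C1 and C4 and green E13.5 cells, and bars are 95% counting intervals (normal approximation). Dusp6 and Spry4 form 3 separate ranges, with C1 and C4 highest, and Egfr is lowest in C1 and C4.

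The contrast of untreated floxed lines (C1 and C4) with the 3 untreated KH2 and tetO lines of the same stage asked how these levels differed with line background. In edgeR's quasi-likelihood test with Benjamini-Hochberg adjustment, 7 of the 9 genes passed, against 66.3% of 12211 genes tested (7 of 9 is close to that share). Of these, 5 were higher in the floxed lines (33.0% of all genes) and 2 lower (33.3%). Dusp6 was 10.9-fold higher (log2 change 3.44, SE 0.25, adjusted p = 7.20e-05) and at the 98.0th percentile of log2 changes of all genes. Spry4 was 6.69-fold higher (2.74, SE 0.12, adjusted p = 2.12e-05) and Spry2 2.44-fold (1.29, SE 0.09, adjusted p = 6.19e-05). Among the receptors, Fgfr1 (0.78, SE 0.14, adjusted p = 0.003) and Fgfr3 (0.85, SE 0.12, adjusted p = 8.84e-04) were higher. Egfr was 2.84-fold lower (-1.5, SE 0.15, adjusted p = 2.16e-04). Fgfr2 was lower by a smaller step (-0.57, SE 0.16, adjusted p = 0.02), and lost the call when KH2, tetO-Msi1, C1 or C4 was left out, with adjusted p of 0.055 to 0.12. Etv5 did not pass (0.98, SE 0.37, adjusted p = 0.055), and tetO-Msi2 cells were at 90.7 while KH2 and tetO-Msi1 cells were at 48.6 and 33.5 and C1 and C4 at 121 and 106. Without tetO-Msi2 the Etv5 difference was 1.47 (adjusted p = 3.59e-04). Etv4 was at -0.25 (SE 0.19, adjusted p = 0.29). The median over the 9 genes was 0.85 and over all genes 0.00. Line type cannot be told apart from the experiment here, since the lines differ in treatment series, time point and counted share. Beside this, the astrocyte list summed to 972 to 1220 in the floxed lines and 489 to 878 in the others, and the neuron list to 67.7 to 74.4 and 39.0 to 51.6. The blood or microglia list, almost all Cd68, summed to 10.6 to 11.4 and 2.34 to 5.34. The neural stem list overlapped, at 16100 to 16800 and 14500 to 17700. Their part in the result was not tested.

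Untreated E13.5 cells were then compared with E12.5 cells of the same lines, KH2 and tetO-Msi1. In the same test with line as a block, 6 of the 9 genes rose (background 50.8% of 11893 genes in either direction and 25.6% higher) and none fell. Dusp6 was again the largest of them at 4.98-fold (log2 change 2.32, SE 0.12, adjusted p = 2.85e-07). Spry4 was 2.93-fold higher (1.55, SE 0.14, adjusted p = 1.05e-05) and Etv5 2.13-fold (1.09, SE 0.12, adjusted p = 4.38e-05). Egfr (0.85, SE 0.11, adjusted p = 1.53e-04), Fgfr1 (0.82, SE 0.10, adjusted p = 9.73e-05) and Spry2 (0.60, SE 0.10, adjusted p = 7.50e-04) rose by less. Etv4 (0.28, adjusted p = 0.10), Fgfr2 (0.04, adjusted p = 0.77) and Fgfr3 (-0.31, adjusted p = 0.14) did not pass. The lines gave different values for Fgfr3, -0.70 in tetO-Msi1 and 0.06 in KH2. The median of the 9 genes was 0.82, that of all genes 0.01. Stage cannot be told apart from the sequencing series, with a counted share of 28.2% to 32.0% at E13.5 and 15.0% to 15.6% at E12.5. The neuron list summed to 57.9 to 60.5 at E13.5 and 39.0 to 48.8 at E12.5, the oligodendrocyte lineage list to 2200 to 2850 and 1760 to 2170, the blood or microglia list to 3.64 to 4.16 and 4.59 to 5.34, and the astrocyte list overlapped at 784 to 810 and 809 to 878. Their part was not tested. The E12.5 KH2 and tetO-Msi1 libraries serve as controls in both this contrast and that of the floxed lines.

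The response to 4-OHT that C1 and C4 shared was smaller. With line as a block, 3 of the 9 genes passed, all higher, against 5.50% of 11626 genes called in either direction and 3.14% called higher. Dusp6 rose 1.39-fold (log2 change 0.47, SE 0.06, adjusted p = 0.006), from 240 to 324 in C1 and from 175 to 252 in C4. Egfr rose 1.46-fold (0.54, SE 0.12, adjusted p = 0.036), from 107 to 132 and from 80.8 to 140. Spry4 rose 1.24-fold (0.31, SE 0.07, adjusted p = 0.031), from 115 to 138 and from 97.2 to 125. For all 3 genes both 4-OHT libraries lay above both untreated ones, with Dusp6 at 240 in untreated C1 and 252 in treated C4. These are the libraries that gave the calls, so this order restates them and is no further support. Its share over all genes was not counted. The Egfr value rested most on C4, with 0.79 when C1 was left out and 0.30 when C4 was, each from a single line and with no test. Of the others, Etv4 (0.34, adjusted p = 0.069), Etv5 (0.18, adjusted p = 0.17) and Spry2 (0.18, adjusted p = 0.13) had positive values, Fgfr1 (0.05, adjusted p = 0.68) was close to 0, and Fgfr2 (-0.22, adjusted p = 0.19) and Fgfr3 (-0.10, adjusted p = 0.41) had negative ones. The median was 0.18 over the 9 genes and 0.00 over all genes. DESeq2 called the same number, 3 of the 9. Without the line block, edgeR called 0 of the 9 genes and 0 of all genes. Because C1 has no Cre, the shared part is not a test of the knockout.

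C4 and C1 can be set side by side only as libraries, with counting intervals and no replicate check. Egfr changed by a log2 of 0.86 (95% interval 0.75 to 0.97) in the library labelled C4 with 4-OHT and 0.30 (0.20 to 0.39) in C1 with 4-OHT, on the deposited RPKM. Etv4 changed by 0.59 (0.53 to 0.65) and 0.16 (0.10 to 0.22), Etv5 by 0.34 (0.29 to 0.39) and 0.10 (0.05 to 0.15), and Dusp6 by 0.59 (0.55 to 0.63) and 0.43 (0.39 to 0.46). The median of all genes moved by 0.07 in C4 and 0.00 in C1. No gene of the 9 reached a 2-fold change in C1 (0.110% of all genes did), in C4 (1.14%) or between treated C4 and treated C1 (0.917%). In that last comparison Dusp6 was at -0.33 (-0.36 to -0.30), Fgfr3 at -0.27 (-0.32 to -0.23) and Etv4 at 0.30 (0.24 to 0.35). The counting intervals leave out any variation between cultures. The oligodendrocyte lineage list summed to 2530 to 2640 with 4-OHT and 1860 to 2310 without, the neuron list to 57.3 to 64.9 and 67.7 to 74.4, the astrocyte list to 854 to 904 and 972 to 1220, and the blood or microglia list to 12.4 to 14.9 and 10.6 to 11.4, and their part was not tested.

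**Figure D2:**
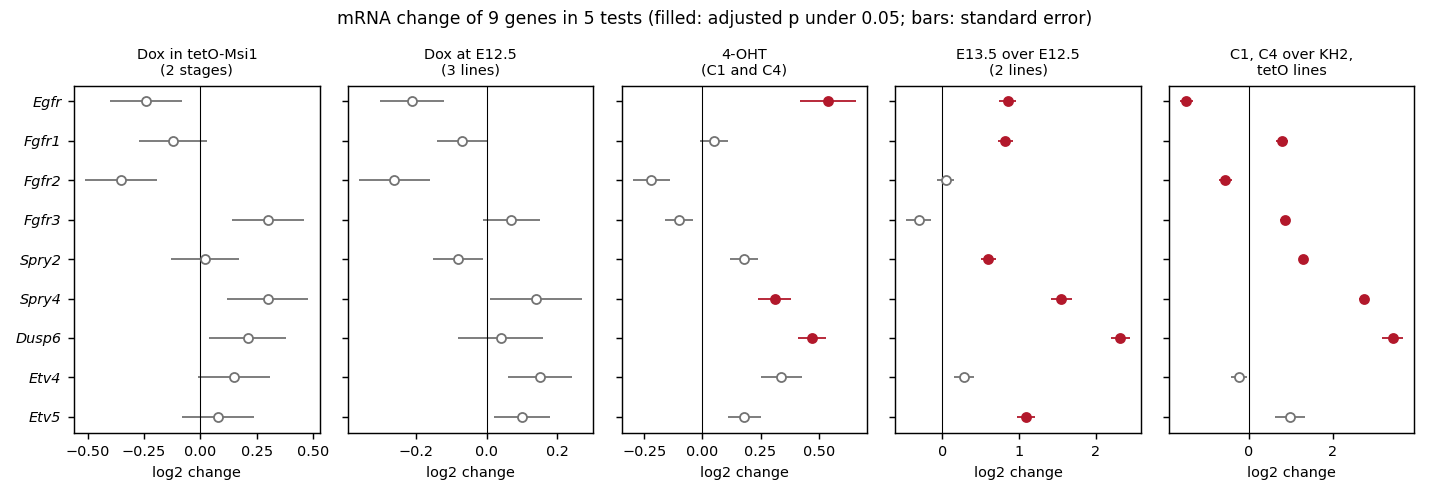
Log2 change of mRNA (horizontal axis, on its own scale in each panel) with its standard error for 9 genes in 5 tests, filled where the adjusted p was under 0.05. No gene is filled in the 2 Dox panels, 3 are for 4-OHT, 6 for stage and 7 for line background, where Egfr and Fgfr2 lie left of 0.

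Induction of Msi1 by Dox in tetO-Msi1 cells, taken over both stages, changed the mRNA of none of the 9 genes past the threshold (edgeR, stage as a block). Over all genes 3.60% of 11938 passed, and DESeq2 called 104 genes, none of the 9 among them. At an unadjusted p under 0.05 edgeR had 1 of the 9, Fgfr2, at -0.35 (SE 0.16, adjusted p = 0.28). Fgfr2 mRNA was at 47.9 without and 39.2 with Dox at E12.5 and at 50.3 and 37.7 at E13.5. Egfr was at -0.24 (SE 0.16, adjusted p = 0.52), Fgfr3 at 0.30 (SE 0.16, adjusted p = 0.36), Spry4 at 0.30 (SE 0.18, adjusted p = 0.46) and Dusp6 at 0.21 (SE 0.17, adjusted p = 0.66). The stages differed for some genes, and that difference was not tested, with 1 library an arm. Fgfr3 was at 0.01 (-0.10 to 0.13) at E12.5 and 0.65 (0.59 to 0.71) at E13.5, and Dusp6 at -0.04 (-0.35 to 0.27) and 0.46 (0.40 to 0.52).

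Dox at E12.5 over the KH2 line and both tetO lines, with line as a block, also called none of the 9 (0.451% of 11969 genes). As KH2 has no Musashi transgene, this shared response is not a test of Musashi induction. DESeq2 called 69 genes and none of the 9. The E12.5 tetO-Msi1 libraries enter both Dox tests, and the untreated ones also the stage test. At an unadjusted p under 0.05 edgeR listed 2 of them, Fgfr2 at -0.26 (SE 0.10, adjusted p = 0.26) and Egfr at -0.21 (SE 0.09, adjusted p = 0.30). In the single lines, Egfr was at -0.11 (-0.23 to 0.01) in KH2, -0.37 (-0.52 to -0.21) in tetO-Msi1 and -0.17 (-0.30 to -0.05) in tetO-Msi2. Fgfr2 was at -0.12 (-0.25 to 0.02), -0.28 (-0.45 to -0.11) and -0.40 (-0.58 to -0.22). Both receptors thus had negative values in all 3 lines, KH2 without a transgene included. Etv4 was at 0.41 (0.30 to 0.52) in tetO-Msi2, 0.05 (-0.04 to 0.14) in KH2 and -0.03 (-0.16 to 0.11) in tetO-Msi1. None of the 9 genes reached 2-fold in KH2 (0.0984% of all genes), tetO-Msi1 (0.354%) or tetO-Msi2 (0.387%) cells at E12.5 or in tetO-Msi1 cells at E13.5 (0.916%).

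Footprints, the fragments of mRNA that ribosomes shield from nuclease, were measured in KH2, tetO-Msi1, C1 and C4 and added Spry1. They were counted over the coding exons listed by the authors, which were few for some genes, with 91 nt of Fgfr1 and 249 nt of Egfr. Dusp6 footprints stood at 13.7 and 22.6 (untreated and Dox) in KH2, 10.9 and 8.42 in tetO-Msi1, 91.8 and 174 (untreated and 4-OHT) in C1 and 87.4 and 129 in C4. Spry4 footprints stood at 11.7 and 22.9, 15.5 and 5.21, 58.0 and 66.8, and 39.9 and 64.3 in the same order. For both genes every C1 and C4 library lay above every KH2 and tetO-Msi1 library (the share of all genes with such a separation was not counted). Egfr footprints had the reverse order, with 273 to 359 in the 4 libraries of KH2 and tetO-Msi1 and 85.6 to 125 in the 4 of the floxed lines. Etv5 and Fgfr3 footprints were higher in the floxed lines. Etv5 was at 127 to 180 there and 24.2 to 76.7 in KH2 and tetO-Msi1, and Fgfr3 at 113 to 152 and 70.9 to 106. Fgfr3 mRNA was higher in the floxed lines too, while the Etv5 mRNA difference did not pass in the edgeR test (adjusted p = 0.055). That test included untreated tetO-Msi2 cells, with Etv5 mRNA at 90.7, for which there was no Ribo-Seq library. Fgfr2 footprints were lower in the floxed lines, as its mRNA was, at 2.75 to 6.82 against 11.1 to 18.9, on few reads. The difference in Spry2 footprints was smaller than that in its mRNA. Spry2 footprints in untreated C1 and C4 were above those in untreated KH2 and tetO-Msi1 by a log2 of only 0.19 to 0.47 over the 4 pairs of libraries. Fgfr1 footprints under the ID with an mRNA row overlapped, at 42.1 and 56.8 in KH2 and 39.1 and 54.0 in C1, on 4 to 32 reads. Under the second Fgfr1 ID, with 7 to 127 reads, they were at 15.1 to 35.4 in KH2 and tetO-Msi1 and 35.4 to 91.3 in C1 and C4.

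Spry1, the Sprouty gene without an mRNA row, had 4 and 4 footprint reads in KH2, 16 and 3 in tetO-Msi1, 125 and 90 in C1 and 45 and 93 in C4. Its normalised footprint level was 4.07 and 3.66 in KH2, 5.95 and 3.74 in tetO-Msi1, 14.8 and 31.3 in C1, and 18.5 and 45.9 in C4, so that the floxed lines again lay above the others (share of all genes not counted). On this normalised level it was higher with 4-OHT in both floxed lines, by a log2 of 1.08 (95% counting interval 0.69 to 1.48) in C1 and 1.31 (0.80 to 1.82) in C4. Dusp6 footprints were higher by 0.93 (0.75 to 1.10) and 0.56 (0.28 to 0.83) on the same scale. The direction in C1 turned with the scale. The deposited footprint RPKM in C1 went down with 4-OHT, from 5.94 to 4.68 for Spry1 and from 36.9 to 26.1 for Dusp6, where the counted share of the library was 28.5% without and 11.2% with 4-OHT. In C4, with a counted share of 7.5% in both libraries, the deposited RPKM went up, from 1.93 to 4.40 for Spry1 and from 9.11 to 12.3 for Dusp6. On the normalised level the values for Spry2 were 0.17 (-0.05 to 0.39) and 0.47 (0.19 to 0.75), those for Spry4 0.20 (-0.04 to 0.45) and 0.69 (0.30 to 1.08), and those for Egfr 0.29 (-0.06 to 0.63) and 0.18 (-0.37 to 0.73). Since Spry1 mRNA is not in the tables, its footprints cannot be divided into mRNA and translation.

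**Figure D3:**
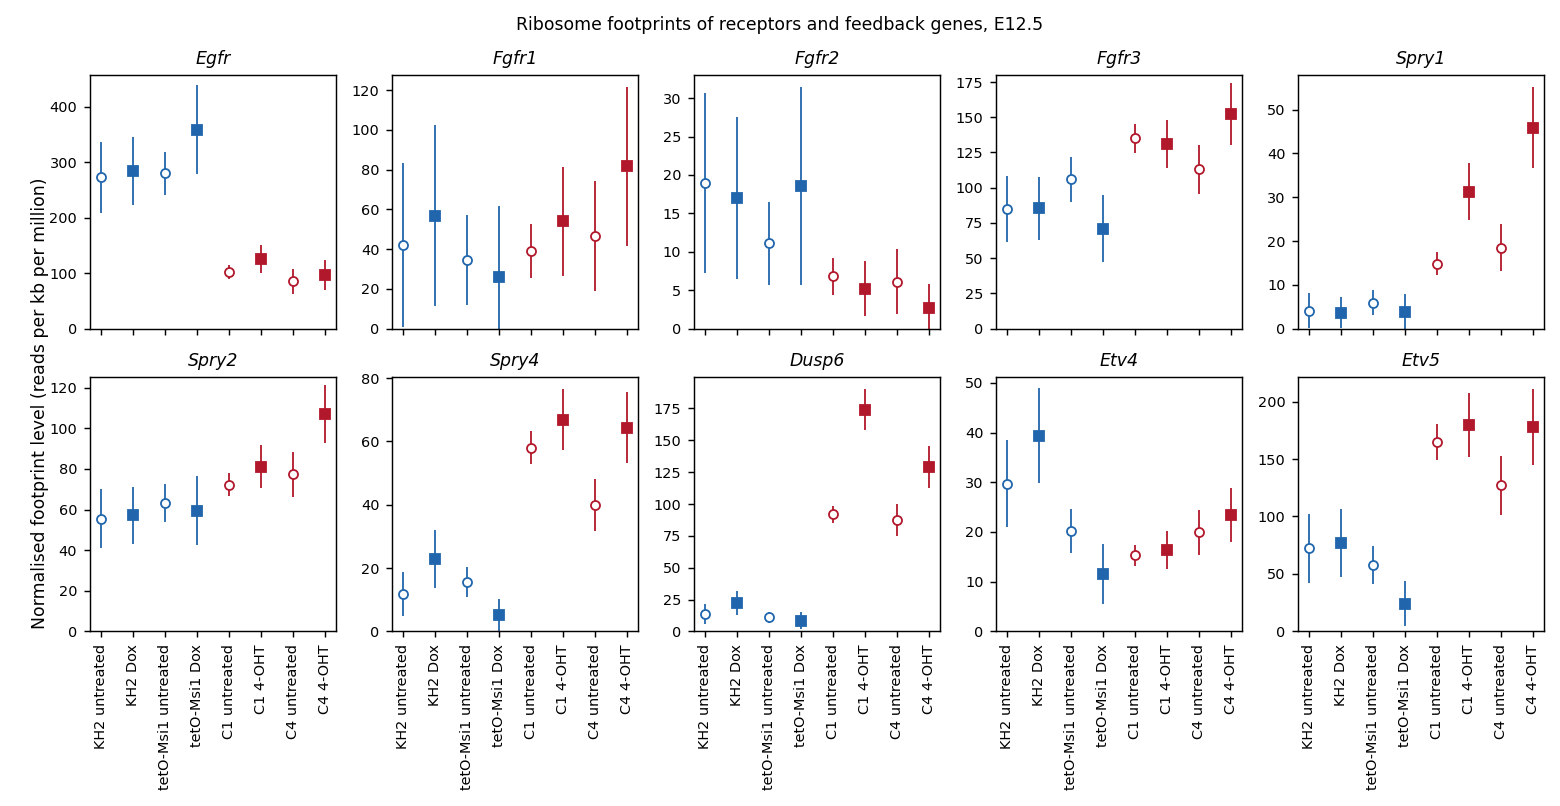
Normalised footprint level (RPKM-like units after TMM scaling, linear axis from 0) of 10 genes in 8 Ribo-Seq libraries at E12.5, with open circles for untreated and filled squares for treated libraries. Blue marks KH2 and tetO-Msi1, red C1 and C4, and bars are 95% counting intervals (normal approximation). Dusp6, Spry1 and Spry4 are higher and Egfr lower in C1 and C4, and Fgfr1 (the ID with an mRNA row) and Fgfr2 rest on few reads.

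Translational efficiency (TE), the ratio of footprint RPKM to mRNA RPKM, was compared within each library with the median of all genes that had over 5 reads in both assays, because the median log2 TE itself ran from -2.95 to -0.81 over the 8 pairs of libraries. In the 4 untreated lines, Etv5 lay 1.66 ± 0.26 (SD, n = 4) and Egfr 1.19 ± 0.12 above the library median on the log2 scale, between the 86.8th and the 95.6th percentile of genes in every line. Spry2 lay at -1.22 ± 0.64, Etv4 at -1.12 ± 0.27 and Fgfr1 at -1.07 ± 0.50, all below the median in every line. The Fgfr1 value in KH2 (-0.55) rested on 4 footprint reads, too few for the read limit, and without KH2 the Fgfr1 mean was -1.24. Fgfr2 (-0.81 ± 0.45) and Fgfr3 (-0.48 ± 0.34) were lower than the median too. Spry4 (0.48 ± 0.62) and Dusp6 (0.34 ± 0.53) spread around it, with Spry4 at 0.84 in KH2, 1.15 in tetO-Msi1, 0.12 in C1 and -0.18 in C4 and Dusp6 at 0.77, 0.80, -0.29 and 0.10. Spry2, though always below the median, varied as much between lines, at -0.84, -0.51, -1.82 and -1.70 in the same order. Without tetO-Msi1 the means were 0.26 for Spry4 and 0.19 for Dusp6, and without C1 that of Dusp6 was 0.56. The paralogues Etv4 and Etv5 thus differed by more than their spread over the lines, and did not overlap in any library pair. RNA and footprints were counted over different lengths for all 9 genes (for Etv5, 1053 nt of RNA and 292 nt of coding exon), which enters each gene's TE level and cancels in a change of TE. With both Fgfr1 IDs summed, Fgfr1 was at -1.16 ± 0.53.

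No gene of the 9 changed its TE past the threshold in the interaction tests of assay and treatment. With 4-OHT over C1 and C4, edgeR called 0 of 10490 genes (0%), with 934 at an unadjusted p under 0.05 and none of the 9 among them, and DESeq2 called 3 genes, none of the 9. With Dox over KH2 and tetO-Msi1, 8 of 10111 genes (0.0791%) passed and none of the 9 did, also at an unadjusted p. Because C1 has no Cre and KH2 no Musashi transgene, these shared TE changes are not tests of the knockout or of Msi1. The values ran from -0.37 (Fgfr2, SE 0.48) to 0.57 (Fgfr1, SE 0.30) with 4-OHT and from -0.49 (Etv5, SE 0.40) to 0.44 (Fgfr2, SE 0.50) with Dox, with SEs of 0.15 to 0.48 and 0.22 to 0.62, largest for genes with few footprints. These values differed between the lines behind them. With Dox, Fgfr2 was at 1.03 without KH2 and -0.09 without tetO-Msi1, and Etv5 at -1.32 and 0.07. With 4-OHT, Fgfr2 was at -0.89 without C1 and -0.13 without C4, and Fgfr1 at 0.74 and 0.49. The median over the 9 genes was 0.11 and -0.01, and over all genes -0.02 and -0.01.

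In single lines the study's definition of a TE change (at least 3-fold, over 5 reads in each library, mRNA change under 1.5-fold) was met by 1 of the 9 genes in 1 line, Fgfr2 in C1. There 38.5% of the genes within the read and mRNA limits met it, and the median of all genes moved by -1.46 with 4-OHT. Relative to that median Fgfr2 moved by -0.15 (95% counting interval -1.27 to 0.98) and no longer counted. None of the 9 met it in KH2 (1.10% of genes within these limits), tetO-Msi1 (1.29%) or C4 (2.60%). Some of the 9 fell outside the limits and could not meet it. These were Fgfr1 in KH2, Fgfr1 and Spry4 in tetO-Msi1, and Dusp6, Egfr, Etv4 and Fgfr2 in C4. In tetO-Msi1 cells with Dox, the TE of Egfr moved by 0.68 relative to the median (0.27 to 1.09), on 199 footprint reads without and 76 with Dox, and in KH2 cells by 0.08 (-0.40 to 0.55). The TE of Etv5 moved by -1.38 (-2.62 to -0.14) in tetO-Msi1, on 48 and 6 reads, and by 0.04 (-0.79 to 0.87) in KH2. Fgfr3 was at -0.63 (-1.18 to -0.09) and -0.01 (-0.57 to 0.55). Spry4 was at -1.83 (-3.34 to -0.31) in tetO-Msi1 with 4 reads left, too few for the filter, and at 0.75 (-0.31 to 1.81) in KH2. The tetO-Msi1 library with Dox was the smallest of the Ribo-Seq libraries, and whether these lines differ was not tested, as each has 1 library an arm. In C1 the TE of Dusp6 moved by 0.53 relative to the median (0.36 to 0.71). In C4 that of Fgfr3 moved by 0.58 (0.27 to 0.88) and that of Egfr by -0.57 (-1.13 to -0.01).

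**Figure D4:**
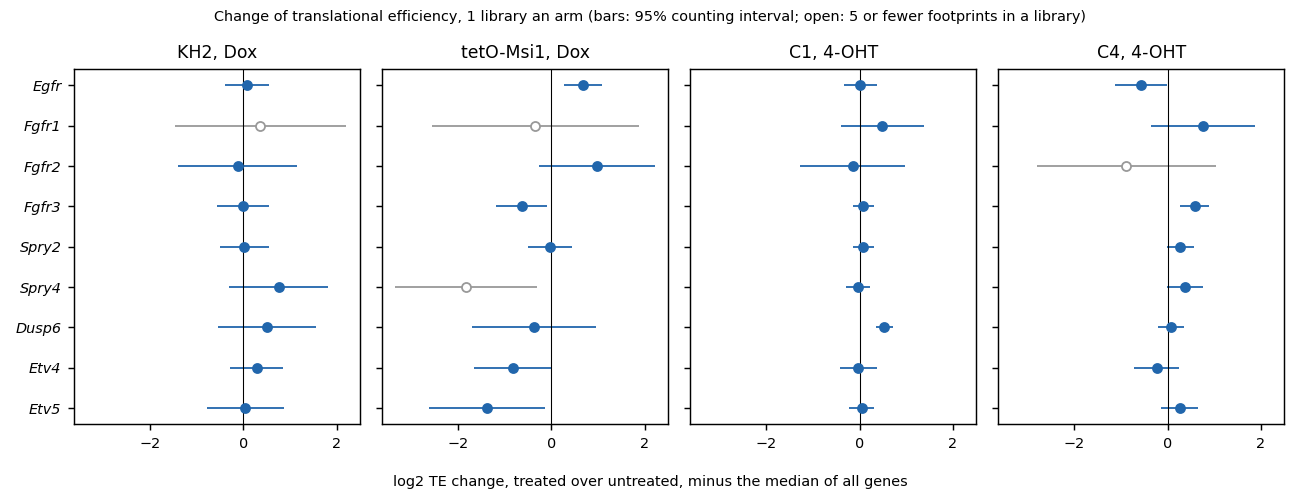
Log2 TE change of 9 genes, treated over untreated and minus the median of all genes, in 4 lines with 1 library an arm. Bars are 95% counting intervals, and open points have 5 or fewer footprint reads in a library. In tetO-Msi1 Egfr lies right and Etv5, Fgfr3 and Spry4 left of 0, while all 9 intervals include 0 in KH2.

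The wider pathway was read from a list of 94 genes, of which 60 to 68 were tested in each contrast. Between floxed and other lines 31 were higher and 21 lower of 68 (76.5%, background 66.3%). Against 33.0% higher and 33.3% lower of all genes, the EGF family ligands had 5 of 6 higher and none lower. Among them, Hbegf (heparin-binding EGF-like growth factor) was 144-fold higher (log2 change 7.17, SE 0.18, adjusted p = 6.49e-06) and Areg (amphiregulin) 40.2-fold (5.33, SE 0.45, adjusted p = 1.20e-04), both of them ligands of the receptor whose mRNA was lower in these lines. Fosl1, an AP-1 subunit and ERK target, was 49.9-fold higher (5.64, SE 0.14, adjusted p = 6.49e-06). Fgf11 (-3.38, SE 0.16, adjusted p = 2.41e-05) and Fgf14 (-2.80, SE 0.42, adjusted p = 0.0012), intracellular FGF homologues, and Flrt2 (-1.87, SE 0.18, adjusted p = 1.99e-04), a membrane protein of the FLRT family, were the largest decreases. The adaptor list had 1 higher and 7 lower of 10 (33.0% and 33.3% of all genes).

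Between stages 15 pathway genes were higher and 21 lower of 66 (54.5%, background 50.8%), led by Ccnd1, encoding cyclin D1 (2.40, SE 0.11, adjusted p = 1.04e-07), Hbegf (2.82-fold, SE 0.29 in log2, adjusted p = 0.0016) and Myc (1.46, SE 0.12, adjusted p = 5.57e-06). Fosl1 (-3.00, SE 0.58, adjusted p = 0.0017), Fgf11 (-1.54, SE 0.17, adjusted p = 4.70e-05) and Mapk3, encoding ERK1 (-1.33, SE 0.13, adjusted p = 1.78e-05), fell most. Fosl1 thus was lower in E13.5 cells, where Dusp6 and Spry4 were higher. With 4-OHT none of 67 pathway genes rose and 3 fell (4.48%, background 5.50%), namely Fosl1 (-1.20, SE 0.15, adjusted p = 0.0056), the ERBB ligand gene Nrg1 (-0.82, SE 0.19, adjusted p = 0.043) and Errfi1, an inhibitor of EGFR (-0.59, SE 0.12, adjusted p = 0.031). Without the line block no gene passed with 4-OHT, these 3 included. Of the other inhibitors and ERK targets on the list, none passed as higher. With Dox in tetO-Msi1 cells 1 of 65 rose, the heparan sulphate proteoglycan gene Sdc1 (0.55, SE 0.17, adjusted p = 0.04), and 1 fell, Flrt3 (-1.06, SE 0.17, adjusted p = 7.05e-07), which encodes a membrane partner of FGF receptors. Both calls were lost without the stage block, where no gene passed. None passed in edgeR with Dox over the 3 lines at E12.5 or in the TE tests.

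For each gene the most similar of 8165 genes over the 13 conditions was sought on log2 of the deposited RPKM. For Dusp6 it was Spry2 (r = 0.995, and 0.982 on the normalised levels). It was Tmem214 for Spry2 (0.998 and 0.988), Kat2a for Spry4 (0.997 and 0.993), Ogfod1 for Fgfr1 (0.997 and 0.985) and Eid2 for Fgfr3 (0.993 and 0.978). For Egfr it was Nsl1 (0.983 and 0.980), for Etv5 Siah2 (0.984 and 0.918) and for Fgfr2 Ptgr2 (0.972 and 0.951). For Etv4 it was Gins2 (0.968), whose r on the normalised levels was 0.692. Ranked on the normalised levels instead, the most similar gene stayed the same for Fgfr1 and Fgfr3 and was another for the other 7. It was then Gdf11 for Dusp6 (0.994), Sipa1l3 for Spry2 (0.993), E2f4 for Spry4 (0.994) and Spc24 for Egfr (0.981). For Etv4 it was Dmwd (0.837), for Etv5 Rpap3 (0.942) and for Fgfr2 St5 (0.956). The 13 conditions share lines and experiments, and the deposited RPKM carry the difference in counted share between experiments.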

How the data were processed

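RNA-Seq was poly(A)-selected and paired-end, and Ribo-Seq single-end. The authors deposited raw read counts and RPKM values per Ensembl gene. The processing notes name TopHat, Bowtie and mm9, and versions are not given in the sources used here. RNA counts cover a listed length per gene, Ribo-Seq counts the listed coding exons. RPKM equals the count divided by that length and by a number of reads constant within a library and above the sum of its counts.

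Groups came from the labels, and counts of the technical pair (chi-square 1.67 per degree of freedom over 13207 genes) were summed. Members and lists were chosen with earlier results of these data known. Tests used edgeR 4.0.16 (R 4.3.3; TMM, quasi-likelihood, genes kept where 2 libraries or more reached a CPM of 1, Benjamini-Hochberg over all genes tested, threshold 0.05), with DESeq2 1.42.0 as an alternative, and were tested on simulated data. Other alternatives were DESeq2 size factors, no filter, no block, each line or stage left out, other pseudocounts, a higher read minimum and centring on the median of all genes. The study's methods give no such test. Single-library changes used a pseudocount of 0.5 RPKM for the 2-fold limit and a mean RPKM of at least 1, and their intervals, like every counting interval, cover counting error only. Genes named were the 10 members, per test the 3 pathway genes with the largest change in each direction past the threshold, and 1 most similar gene per member (mean RPKM of at least 5). The normalised level was chosen after seeing the data. Same-numbered replicates do not exist across groups, so blocks are lines or stages. Python 3.11.15, pandas 2.3.3 and numpy 2.4.6 were used.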

Additional observations from a re-analysis of the deposited data

How the results depend on the processing

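Counts of the 9 genes called stayed at 0 for Dox and for TE and at 6 for stage, and ran from 6 to 8 for line background, under other size factors, no filter on low counts, DESeq2, fits without the block and left-out lines where these were run. With 4-OHT the count of 3 was 4 at most and fell to 0 without the replicate block (line), where adjusted p by edgeR was 0.53 for Dusp6, 0.37 for Egfr and 0.47 for Spry4 while log2 changes were 0.47, 0.53 and 0.31. Etv4 passed with 4-OHT without the filter (0.35, adjusted p = 0.0024 by edgeR), and so did Etv5 between lines (1.02, adjusted p = 0.031). In C1 the 1 gene with a 3-fold TE change became 0 with more than 20 reads and when centred on the median. Values near 0 changed sign: Dusp6 with Dox at E12.5 ran from -0.04 to 0.08 over left-out lines (0.04 with all), and the TE change with Dox was 0.08 for Etv4 without the replicate block (-0.12 with it) and 0.02 for Spry2 with DESeq2 and with its size factors (-0.01 in edgeR). Larger sign changes came from leaving out KH2 or tetO-Msi1 in the TE test with Dox: Spry4 was at -1.77 without KH2 and 0.78 without tetO-Msi1, Etv5 at -1.32 and 0.07, Fgfr2 at 1.03 and -0.09, Etv4 at -0.77 and 0.30, Fgfr1 at -0.29 and 0.39, Dusp6 at -0.31 and 0.52, and Fgfr3 at -0.58 and 0.01, from a single line each and with no test. In the TE test with 4-OHT, Egfr was at -0.58 without C1 and 0.03 without C4, and Spry4 at 0.36 and -0.02. Without the block the pathway calls for Fosl1, Nrg1, Errfi1 (4-OHT), Sdc1 and Flrt3 (Dox) were lost too.

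Counts over all genes moved more. For Msi1 induction the 430 genes became 104 with DESeq2 and 0 without the block, and for Dox at E12.5 the 54 became 437 without the filter, 0 without the block and 24 to 510 over left-out lines. For 4-OHT the 639 became 1254 without the filter and 0 without the block. For TE the 0 with 4-OHT became 3 with DESeq2, and the 8 with Dox became 56 without the filter, 3 with DESeq2 and 0 without the block. Genes at 2-fold went from 10 to 22 (pseudocount 0.1), 5 (pseudocount 2) and 18 (no filter) in KH2, from 36 to 89, 10 and 58 in tetO-Msi1 at E12.5, from 98 to 162 and 36 at E13.5, from 12 to 23 and 6 in C1 and from 124 to 197 and 47 in C4 at the first 2 settings. At pseudocount 2 they went from 39 to 12 in tetO-Msi2 and from 100 to 45 between C4 and C1. With more than 20 reads, TE changes went from 77 to 13 in KH2, 88 to 10 in tetO-Msi1 and 206 to 16 in C4, and centring took C1 from 3537 to 212. Depth limits footprints most, with 2 to 32 reads per library for the Fgfr1 ID that has an mRNA row and 7 to 127 for the other.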
